A study of Mus musculus with 4 samples.

Results

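Chemokines are small secreted proteins that draw leukocytes along a gradient, and their receptors are G protein-coupled receptors on the cells that respond. In the liver, Kupffer cells, sinusoidal endothelium, stellate cells and hepatocytes release them, and the ligands fall into CC, CXC, XC and CX3C families by the spacing of their first cysteines. CC chemokines mainly recruit monocytes, lymphocytes and eosinophils, and CXC chemokines mainly recruit neutrophils or, for the interferon-induced members, T cells. The members described here were taken by symbol, as Ccl, Cxcl, Xcl, Cx3cl, Ccr, Cxcr, Xcr, Cx3cr, Ccrl or Cxcrl followed by a number. They comprised 54 of 21260 gene symbols and 71 of 41174 probes on the array, with 34 of the probes belonging to 17 genes that had more than 1.

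The livers came from 4 male Wrn mutant mice on C57Bl/6, 3 months old, whose drinking water held 0.4% vitamin C since they were weaned. They were set against the livers of 4 untreated wild-type males of the same strain and age. Wrn encodes a RecQ helicase, and the labels name a mutant Wrn protein without describing the allele. Each of 4 arrays, all on 1 slide, carried Cy5-labelled RNA of 1 mutant and Cy3-labelled RNA of 1 wild-type mouse, with no dye swap, so genotype, vitamin C and dye cannot be told apart in any ratio. The series describes the 4 arrays as independent biological replicates.

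A positive log2 ratio means a higher signal in the mutant with vitamin C. Levels are log2 normalized intensities of each channel and stay open to dye bias. Of the 71 member probes, 67 probes of 51 symbols passed the detection filter, which asked for a signal well above background on at least 3 arrays in 1 channel. On the 4 arrays, between 82.5% and 95.6% of all probes passed the scanner's background call in mutants, and between 84.2% and 96.1% in wild type, lowest on array 1 in both. Members well above background numbered 58 to 67 per channel. Across all tested probes, which are not independent replicates, the ratios of any 2 arrays correlated with r between 0.394 and 0.589. Whole liver was measured, so fewer cells of a type and less RNA per cell cannot be told apart.

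Few chemokine genes differed between the groups. Ccl2, Ccl7, Ccl20 and Cxcr5 were higher in the mutants with vitamin C, by folds of 1.15 to 1.28, and 1 probe of Ccl25 was lower. In limma's moderated test with Benjamini-Hochberg adjustment over all 39080 tested probes, 5 of 67 member probes (7.46%) passed an adjusted p of 0.05, 4 higher and 1 lower. Over all tested probes 13% passed, 6.19% higher and 6.79% lower. The share of members was thus below the background, and 18 members (26.9%) had an unadjusted p under 0.05, against 32.7% of all tested probes. The median ratio of the members was 0.02, against 0.00 for all tested probes, and 50 of the 67 lay within 0.2 of 0 (74.6%, against 82.9%). The ratio was above 0 on all 4 arrays for 16 members, against 21.4% of all tested probes, and below 0 on all 4 for 4 members, against 18.8% of all tested probes.

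By family, 4 of 22 CC ligand probes passed the test (18.2%), 3 higher and 1 lower, and 10 had an unadjusted p under 0.05 in limma (45.5%). Over all tested probes these shares were 13% and 32.7%, and no test compared the families with them. None of 15 CXC ligand probes passed at an adjusted p of 0.05, although 2 had an unadjusted p under 0.05. Among receptors, none of 15 CC receptor probes passed (2 at an unadjusted p under 0.05), and 1 of 9 CXC receptor probes did (2 at an unadjusted p under 0.05). Neither of the probes for Xcl1 and Cx3cl1, and none of the 4 for Xcr1 and Cx3cr1, passed in limma, with 1 at an unadjusted p under 0.05 in each set. The members varied between arrays about as other probes did, with a median SD of the 4 ratios of 0.11, against 0.10 for all tested probes.

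**Figure D1:**
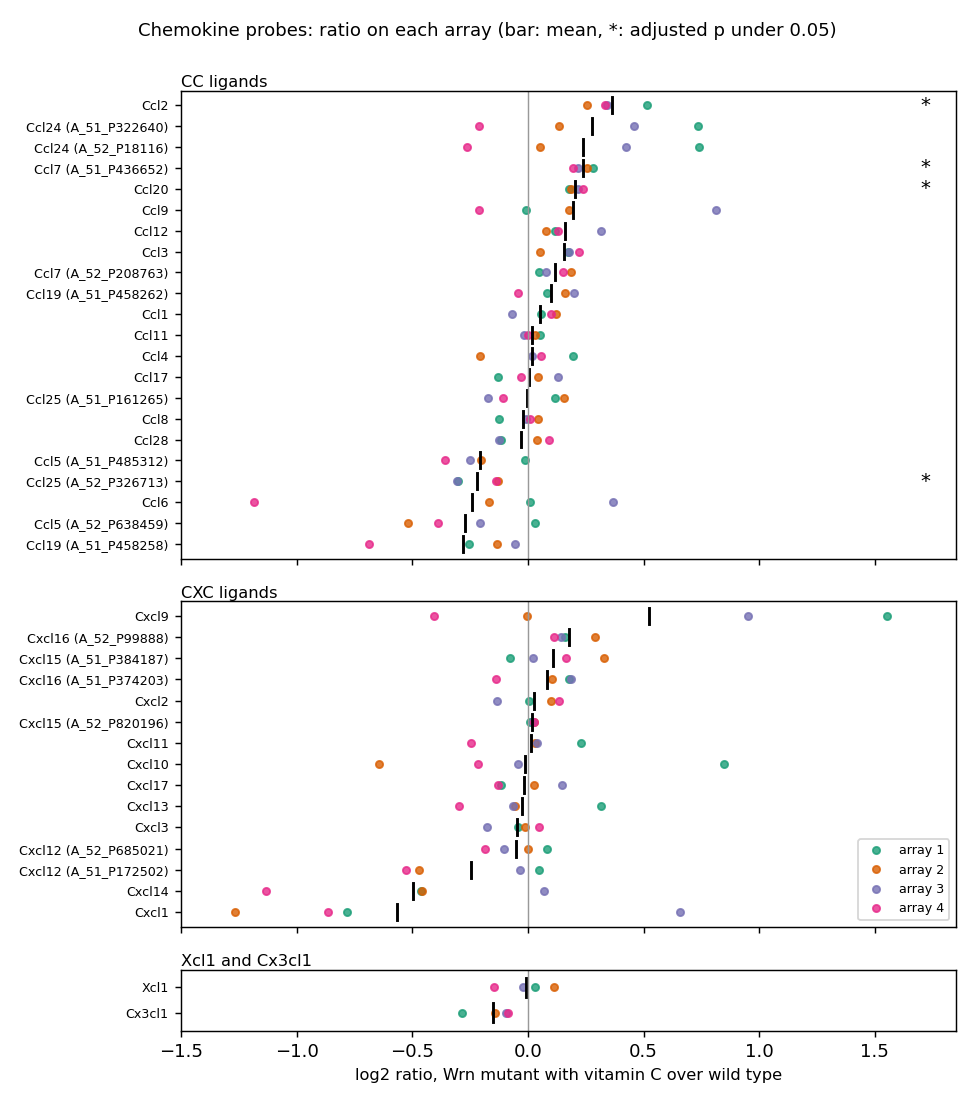
Log2 ratio of each chemokine ligand probe that passed the detection filter, mutant with vitamin C over wild type, on each of 4 arrays (points) with the mean (bar); asterisks mark an adjusted p under 0.05. Ccl2, Ccl7 and Ccl20 have 4 tightly grouped points above 0, while the points of Cxcl9, Cxcl1 and Ccl6 are widely spread.

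Ccl2, also called MCP-1, recruits CCR2-bearing monocytes and is made in the liver by Kupffer and stellate cells. Its level was 9.005, 8.78, 8.94 and 8.91 in mutants 1 to 4, against 8.49, 8.52, 8.60 and 8.58 in wild-type mice 1 to 4. Every mutant lay above every wild-type mouse. The mean log2 ratio was 0.36 ± 0.11 (SD, n = 4 arrays), a fold of 1.28, with a limma adjusted p of 0.0156 and a 95% interval from 0.23 to 0.49.

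Ccl7, or MCP-3, is a neighbour of Ccl2 that also binds CCR2. Probe A_51_P436652 read 7.55, 7.36, 7.33 and 7.30 in the mutants, against 7.27, 7.11, 7.12 and 7.10 in wild type, with no overlap between the groups. Its ratio was 0.24 ± 0.04 (SD, n = 4; limma adjusted p = 0.0223). Probe A_52_P208763 read 8.35, 7.96, 7.93 and 8.14 in the mutants, against 8.31, 7.78, 7.85 and 7.99 in wild type. Those levels overlapped, and the ratio of 0.12 ± 0.06 did not pass the test (limma adjusted p = 0.134), although it was above 0 on all 4 arrays.

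Ccl20 is the ligand of CCR6 and attracts Th17 cells and immature dendritic cells. It had levels of 8.34, 8.21, 8.27 and 8.31 in the mutants, against 8.16, 8.02, 8.06 and 8.07 in wild type. The groups did not overlap, and its 4 ratios lay between 0.18 and 0.24, the mean being 0.20 ± 0.03 (limma adjusted p = 0.0290). CCR6 itself had a ratio of 0.02 on its 1 probe, Ccr6.

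Ccl25 attracts CCR9-bearing lymphocytes to thymus and gut. Probe A_52_P326713 read 7.66, 8.25, 8.08 and 8.31 in the mutants, against 7.96, 8.38, 8.39 and 8.45 in wild type. Within every array the mutant was lower, while across arrays the groups overlapped because both animals of array 1 were low. The ratio was -0.22 ± 0.10 (SD, n = 4; limma adjusted p = 0.0401). Probe A_51_P161265 gave 10.94, 10.79, 10.59 and 10.68 in the mutants, against 10.82, 10.63, 10.76 and 10.79 in wild type, with a ratio of 0.00 ± 0.16. For Ccl25, the fall was thus seen by 1 of 2 probes.

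Cxcr5 is the receptor through which B cells and follicular helper T cells enter follicles. Its level was 9.06, 8.59, 8.51 and 8.38 in the mutants, against 8.84, 8.33, 8.32 and 8.15 in wild type. Both animals of array 1 were high, so the groups overlapped, but the ratios on the 4 arrays lay between 0.19 and 0.26. The mean was 0.23 ± 0.03 (SD, n = 4; limma adjusted p = 0.0238). Its ligand Cxcl13, a B cell attractant, had ratios of 0.32, -0.06, -0.07 and -0.30 and did not pass. Of 9 measured B cell markers, 1 was higher (Ighm, the IgM heavy chain, ratio 0.20) and 1 lower (Cd79b, part of the B cell receptor, ratio -0.23). Over all tested probes 6.19% were higher and 6.79% lower. The summed intensity of the B cell markers ranged from 12093 to 14599 in mutants, against 11130 to 14340 in wild type. The part of B cells in the Cxcr5 ratio was not tested.

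**Figure D2:**
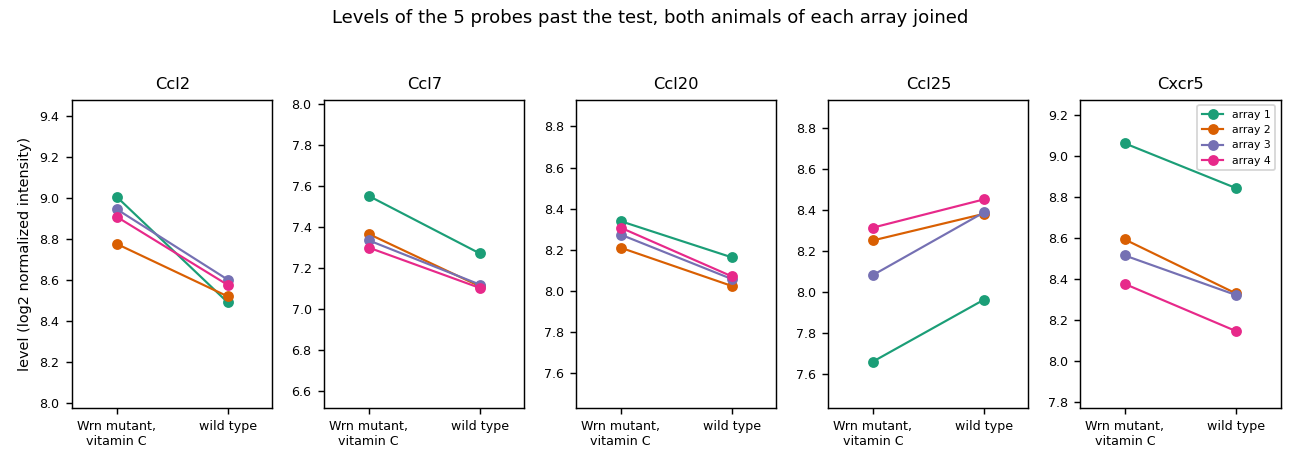
Levels (log2 normalized intensity) of the 5 probes with an adjusted p under 0.05 in mutants with vitamin C (left) and wild type (right); lines join both animals of an array. Ccl2, Ccl7 and Ccl20 do not overlap between groups, while Ccl25 and Cxcr5 overlap but move the same way on each array.

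The 60-base probes behind these 5 measurements are shown because the signals were modest and, for Ccl7 and Ccl25, a second probe of the same gene read a different stretch. They are given as the array design lists them, with no letters in capitals. Both genes' probe pairs share no run longer than 6 bases.
Ccl2 A_51_P286737: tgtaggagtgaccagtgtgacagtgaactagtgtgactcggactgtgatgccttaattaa
Ccl7 A_51_P436652: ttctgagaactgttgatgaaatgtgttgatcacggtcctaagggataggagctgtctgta
Ccl7 A_52_P208763: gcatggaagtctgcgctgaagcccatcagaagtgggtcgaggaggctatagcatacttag
Ccl20 A_51_P408595: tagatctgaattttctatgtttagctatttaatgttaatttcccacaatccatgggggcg
Ccl25 A_52_P326713: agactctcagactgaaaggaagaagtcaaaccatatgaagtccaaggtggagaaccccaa
Ccl25 A_51_P161265: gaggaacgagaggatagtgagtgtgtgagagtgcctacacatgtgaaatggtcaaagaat
Cxcr5 A_52_P70796: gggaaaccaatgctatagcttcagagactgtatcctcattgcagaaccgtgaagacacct

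Most of these calls needed all 4 arrays: without array 1, 3 or 4 only Ccl2 of the 5 still passed in limma, and without array 2 none did, while without array 3 Cxcl1 and Cxcl14 passed as well. Ccl2 passed in 15 of 17 alternative settings, with an adjusted p of 0.0587 without array 2 and 0.185 when channels were fitted as unpaired groups. With Agilent's processed signals only Ccl2 passed, at a ratio of 0.44. The Ccl2 probe had 10 spots on each array, which were averaged, while those of Ccl7, Ccl20, Ccl25 and Cxcr5 had 1. The part of this difference in the calls was not tested. Signals over local background were low for Ccl7 on probe A_51_P436652 (3.16 in mutants, 2.75 in wild type), for Ccl25 on probe A_52_P326713 (5.47 in mutants, 6.49 in wild type) and for Ccl20 (6.09 in mutants, 6.21 in wild type).

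Ccl5, or RANTES, a T cell and monocyte attractant, read 10.45, 10.03, 10.28 and 10.15 on probe A_52_P638459 in mutants, against 10.42, 10.55, 10.49 and 10.54 in wild type. On probe A_51_P485312 it read 9.60, 9.48, 9.46 and 9.44 in mutants, against 9.61, 9.68, 9.71 and 9.80 in wild type. The levels of the second probe did not overlap, those of the first did, and the ratios of -0.27 ± 0.24 and -0.21 ± 0.14 had limma adjusted p-values of 0.0834 and 0.0713.

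Ccl19, which with Ccl21 guides CCR7-bearing dendritic cells and T cells to lymphoid tissue, had a lower mean on 1 probe and a higher mean on the other. Probe A_51_P458258 read 10.15, 10.02, 10.07 and 10.09 in mutants, against 10.41, 10.15, 10.13 and 10.78 in wild type, a ratio of -0.28 ± 0.28 (limma adjusted p = 0.107). Probe A_51_P458262 had a ratio of 0.10 ± 0.11. The difference of 0.38 between them was the largest between probes of 1 member gene. Both sequences follow because they show where the probes differ; the capitals mark the polyadenylation signal AATAAA, which 4 of 71 member probes hold (5.63%), against 4.78% of all probes.
Ccl19 A_51_P458258: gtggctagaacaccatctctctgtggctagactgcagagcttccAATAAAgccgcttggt
Ccl19 A_51_P458262: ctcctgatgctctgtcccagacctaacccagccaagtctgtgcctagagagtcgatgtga

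Ccl24, or eotaxin-2, attracts eosinophils through CCR3 and is made by Kupffer cells. Probe A_51_P322640 read 10.27, 9.76, 10.01 and 9.75 in mutants, against 9.53, 9.62, 9.55 and 9.96 in wild type. Probe A_52_P18116 read 11.33, 10.98, 11.32 and 10.98 in mutants, against 10.59, 10.93, 10.90 and 11.24 in wild type. Both probes were higher in the mutant on arrays 1, 2 and 3 and lower on array 4, and with ratios of 0.28 ± 0.41 and 0.24 ± 0.44 neither passed (limma adjusted p = 0.219 and 0.312).

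The macrophage-derived ligands Ccl6 and Ccl9, both known from rodents, spread mainly among wild-type mice. Ccl6 was 11.001, 10.83, 10.95 and 11.01 in mutants, against 10.99, 10.99, 10.58 and 12.20 in wild type. Ccl9 was 13.50, 13.19, 13.31 and 13.05 in mutants, against 13.51, 13.01, 12.50 and 13.26 in wild type. Wild-type mouse 4 stood high for Ccl6 and wild-type mouse 3 low for Ccl9, and neither ratio passed (-0.24 ± 0.67 and 0.19 ± 0.44). Ccl3 and Ccl12, attractants of monocytes, had means of 0.16 each, above 0 on every array, with limma adjusted p-values of 0.0700 and 0.0904.

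Along the genome the CC ligands fell into groups of neighbouring genes. On chromosome 11, the run of Ccl2, Ccl7, Ccl11, Ccl12, Ccl8 and Ccl1 had 7 tested probes, 2 of them for Ccl7, with a median of 0.12. Of the 7, 6 had a mean above 0, as did 19671 of all 39080 tested probes. The 2 past the test were the Ccl2 probe and the Ccl7 probe already described, while 13% of all tested probes passed. In the run of Ccl5, Ccl9, Ccl6, Ccl3 and Ccl4 on the same chromosome, 3 of 6 probes were above 0, none passed in limma (median -0.10) and the means ran from -0.27 to 0.19. No test compared the runs.

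Cxcl9 and Cxcl1 had the highest and the lowest mean ratio of all members, and both varied too much between arrays to pass. Cxcl9, an interferon-gamma-induced attractant of CXCR3-bearing T cells, was 11.63, 10.25, 10.95 and 10.07 in mutants, against 10.07, 10.25, 9.998 and 10.48 in wild type. Mutants 1 and 3 stood above all wild-type mice, and mutants 2 and 4 did not. The ratio was 0.52 ± 0.89 (SD, n = 4; limma adjusted p = 0.265).

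Cxcl1, or KC, draws neutrophils through CXCR2 and is made by hepatocytes and other liver cells on inflammatory signals. It was 9.44, 9.17, 9.77 and 9.86 in mutants, against 10.23, 10.44, 9.11 and 10.73 in wild type. It was lower in the mutant on arrays 1, 2 and 4 and higher on array 3, where the wild-type mouse was lowest of the 8 animals. The ratio was -0.57 ± 0.84 (limma adjusted p = 0.209), and without array 3 it was -0.97 with an adjusted p of 0.0166. Both probes of Cxcr2, the neutrophil receptor, had means of -0.06 and -0.03, with ratios of 0.04, 0.05, -0.13 and -0.19 on probe A_52_P559975 and 0.05, -0.06, -0.12 and 0.01 on probe A_51_P148602. Of 10 measured neutrophil markers, none passed in limma, and S100a9 (ratio -0.44) and Elane (ratio 0.11) had the smallest p. The summed intensity of the 10 markers ranged from 5608 to 7437 in mutants, against 5971 to 7468 in wild type.

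Cxcl14, an epithelial attractant of monocytes and dendritic cells, was 9.65, 9.65, 9.87 and 10.18 in mutants, against 10.11, 10.11, 9.81 and 11.32 in wild type. The groups overlapped, with wild-type mouse 4 highest, and the ratio was -0.50 ± 0.49 (limma adjusted p = 0.0914). Without array 3 the ratio of Cxcl14 was -0.69 with an adjusted p of 0.0452.

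Cxcl12, or SDF-1, retains CXCR4-bearing cells and had the highest signal over local background of the members, 701 in mutants and 762 in wild type on probe A_51_P172502. That probe read 15.22, 14.83, 15.09 and 15.03 in mutants, against 15.17, 15.30, 15.13 and 15.56 in wild type. The ratio was -0.25 ± 0.30, and -0.05 ± 0.12 on probe A_52_P685021, with overlapping levels on both and limma adjusted p-values of 0.158 and 0.558. When arrays were median-centred without loess, the Cxcl12 ratios were 0.10 and 0.05, so their sign depended on the normalization. Cxcr4 had ratios of -0.18, -0.23, 0.00 and 0.04 on probe A_52_P565353, and of 0.18, -0.05, 0.30 and -0.11 on probe A_52_P585124, so the means of its probes had opposite signs.

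Cxcl10, like Cxcl9 an interferon-induced ligand of CXCR3, was 10.55, 9.22, 10.09 and 9.36 in mutants, against 9.70, 9.87, 10.13 and 9.57 in wild type. The groups overlapped, mutant 1 being highest and mutant 2 lowest of the 8 animals, and the mean ratio was -0.01 ± 0.63. Cxcr3 had ratios of 0.14, 0.01, 0.09 and 0.02, all small and above 0, and did not pass (limma adjusted p = 0.343).

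Cxcl16, a membrane-bound ligand on sinusoidal endothelium and macrophages, is paired with CXCR6 on NKT and resident T cells. Its probe A_52_P99888 had ratios of 0.16, 0.29, 0.14 and 0.11, a mean of 0.18 ± 0.08 with an adjusted p of 0.0544 in limma. Its probe A_51_P374203 had ratios of 0.18, 0.11, 0.19 and -0.14. Cxcr6 was 8.58, 7.73, 8.42 and 7.81 in mutants, against 7.89, 7.81, 7.88 and 7.90 in wild type. Wild-type mice lay close together, while mutants 1 and 3 stood above them and mutants 2 and 4 near or below them. The ratio of Cxcr6 was 0.27 ± 0.41 (limma adjusted p = 0.236).

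The animals that varied most were mutants for some genes and wild-type mice for others. For Cxcl9, Cxcl10 and Cxcr6 the SD of the level over mutants was 0.71, 0.62 and 0.43, against 0.21, 0.24 and 0.04 over wild-type mice. For Cxcl1, Cxcl14 and Ccl6 it was 0.32, 0.25 and 0.09 over mutants, against 0.71, 0.67 and 0.70 over wild-type mice. Over all 67 members the median SD was 0.19 in mutants and 0.18 in wild type, and for all tested probes it was 0.17 in both.

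The ratios of Cxcl9, Cxcr6 and Ccl24 were higher on arrays 1 and 3 than on arrays 2 and 4. The summed intensity of 12 measured Kupffer cell and macrophage markers had log2 ratios of 0.26, -0.23, 0.23 and -0.64 on arrays 1 to 4. That sum ranged from 66004 to 89718 in mutants, against 70477 to 114380 in wild type. Dendritic cell markers summed to ratios of 0.21, -0.26, 0.02 and -0.24. Those of monocytes summed to 0.06, -0.14, 0.05 and -0.49. Neutrophil sums and T and NK cell sums were also higher on arrays 1 and 3 than on arrays 2 and 4. Sums of B cell, endothelial, stellate, cholangiocyte and hepatocyte markers did not follow this order. All 12 Kupffer cell and macrophage markers passed the detection filter and none passed the test in limma. Emr1 (ratio 0.19) and Vsig4 (ratio 0.18) had the smallest p of them. The part of any of these cell type markers in the chemokine ratios was not tested. The acute phase genes Saa1, Saa2 and Saa3, which encode serum amyloid A, were lower on every array and passed. Saa3, with the smallest p of them, had ratios of -1.16, -2.57, -2.55 and -4.34 on arrays 1 to 4 (limma adjusted p = 0.0182). The means of Saa1 and Saa2 were -2.48 and -2.40. Lcn2, an iron-binding acute phase protein, had ratios of -0.35, -0.83, -0.12 and -3.20 and did not pass (limma adjusted p = 0.148). The 14 acute phase genes summed to log2 ratios of 0.07, -0.56, -0.29 and -2.27 on arrays 1 to 4. In limma 5 of the genes were lower and none higher, against 6.79% lower and 6.19% higher of all tested probes. With median centring 1 was higher and 4 lower, and without array 2 none passed. The part of these genes in the array 4 ratios of Ccl6, Cxcl14 and probe A_51_P458258 of Ccl19 was not tested. On that array the Ccl19 probes were at -0.69 (A_51_P458258) and -0.04 (A_51_P458262).

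**Figure D3:**
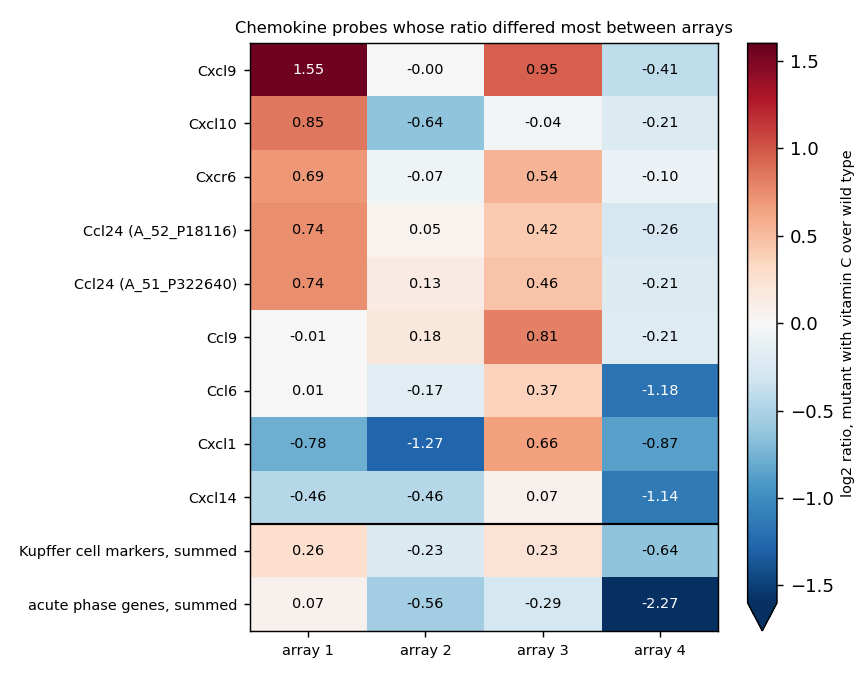
Log2 ratio, mutant with vitamin C over wild type, on each array for the chemokine and receptor probes whose ratio varied most, with the summed ratios of Kupffer cell and acute phase genes under the line. Cxcl9, Cxcr6 and Ccl24 are highest on arrays 1 and 3, while Ccl6 and Cxcl14 are lowest on array 4.

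On chromosome 5 the neighbours Cxcl3, Cxcl15, Cxcl1 and Cxcl2 had mean ratios from -0.57 to 0.11 on 5 tested probes, with none past the test in limma. Cxcl2, or MIP-2, and Cxcl3 are neutrophil attractants related to Cxcl1, and their ratios of 0.02 ± 0.12 and -0.05 ± 0.09 were near 0. NF-kB, a transcription factor of inflammatory signalling, is known to act on several of these genes. Among windows of 300 bases around RefSeq gene starts (GRCm38.p6), a match to the NF-kB consensus on either strand was found in 11 of 44 windows of 40 member genes (25.0%), against 8.46% of all 32851 windows. The AP-1 motif TGANTCA was found in 6 of the 44 (13.6%), against 7.81% of all, and no match of the one overlapped a match of the other in these windows. Stretches of 90 bases follow for Cxcl1, Cxcl2 and Cxcl3, which share the match but had different ratios, and for Ccl20, which was higher in the mutants. Of the other genes past the test, Ccl25 had no NF-kB match in its windows, and no window was available for Ccl2, Ccl7 and Cxcr5. Whether the match bears on any ratio was not tested. Capitals mark the matches. In Cxcl1, Cxcl2 and Cxcl3 they span 2 overlapping matches, which begin 71, 97 and 73 bases before the start. In Ccl20 they mark 1 match, to the consensus on the opposite strand, which begins 80 bases before the start.
Cxcl1, chr5:90891135-90891224, plus strand: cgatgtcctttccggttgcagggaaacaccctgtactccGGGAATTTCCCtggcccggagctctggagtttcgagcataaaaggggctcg
Cxcl2, chr5:90903789-90903878, plus strand: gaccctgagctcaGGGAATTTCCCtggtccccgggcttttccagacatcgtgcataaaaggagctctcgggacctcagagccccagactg
Cxcl3, chr5:90785991-90786080, plus strand: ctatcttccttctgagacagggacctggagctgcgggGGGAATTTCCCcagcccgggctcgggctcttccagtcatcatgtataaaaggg
Ccl20, chr1:83116656-83116745, plus strand: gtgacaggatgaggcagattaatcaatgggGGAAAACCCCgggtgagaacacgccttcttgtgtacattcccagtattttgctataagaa

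Of the receptor probes, 25 of 28 lay within 0.2 of 0 (89.3%), as did 25 of 39 ligand probes (64.1%) and 82.9% of all tested probes. No test compared the families. Ccr2, the receptor of Ccl2 and Ccl7 on inflammatory monocytes, had ratios of 0.06, -0.25, -0.08 and -0.53 on probe A_51_P245989 and of 0.17, 0.02, -0.09 and 0.01 on probe A_52_P580853. Its probe means of -0.20 and 0.03 differed in sign and neither passed (limma adjusted p = 0.182 and 0.744). Of 10 measured monocyte markers 1 passed, against 13% of all tested probes. It was Ly6c1, a surface antigen also found on endothelium, with a ratio of 0.21. The summed intensity of those markers ranged from 30498 to 34120 in mutants, against 30931 to 43961 in wild type.

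Ccr3, the eosinophil receptor of Ccl24, was at 0.16 ± 0.04 on probe A_51_P412768 (limma adjusted p = 0.0540). On its probe A_52_P661044, which lacked a value on array 1 and was fitted on the other arrays, it was at -0.09. Ackr3, listed as Cxcr7, is a scavenger of Cxcl12, and its levels of 9.30, 9.33, 9.29 and 9.49 in mutants did not overlap those of 9.24, 9.24, 9.18 and 9.22 in wild type. Its ratio of 0.13 ± 0.09 did not pass (limma adjusted p = 0.124). With Ccl2, Ccl20 and a probe each of Ccl7 and Ccl5, it made 5 member probes whose levels did not overlap, 7.46% of the members against 7.19% of all tested probes.

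Cx3cl1, or fractalkine, a membrane-anchored ligand, had ratios of -0.29, -0.14, -0.10 and -0.09, all below 0, with a mean of -0.15 ± 0.09 (limma adjusted p = 0.0879). Its receptor Cx3cr1, found on monocytes and some macrophages, was at 0.17, 0.03, 0.30 and 0.24 on probe A_51_P350853, all above 0, and at -0.09, -0.22, 0.04 and -0.06 on probe A_52_P99810. Xcl1, a lymphotactin made by NK and T cells, had ratios of 0.03, 0.11, -0.02 and -0.15. Xcr1, its receptor on cross-presenting dendritic cells, was at 0.01, -0.04, 0.14 and 0.07 on probe A_51_P345805, and at 0.01, 0.24, 0.09 and 0.11 on probe A_52_P490159. None of these 4 genes passed in limma, and of the 10 measured dendritic cell markers none passed either. Cd74 (ratio -0.31) and Ly6d (ratio 0.34) had the smallest p of those markers.

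**Figure D4:**
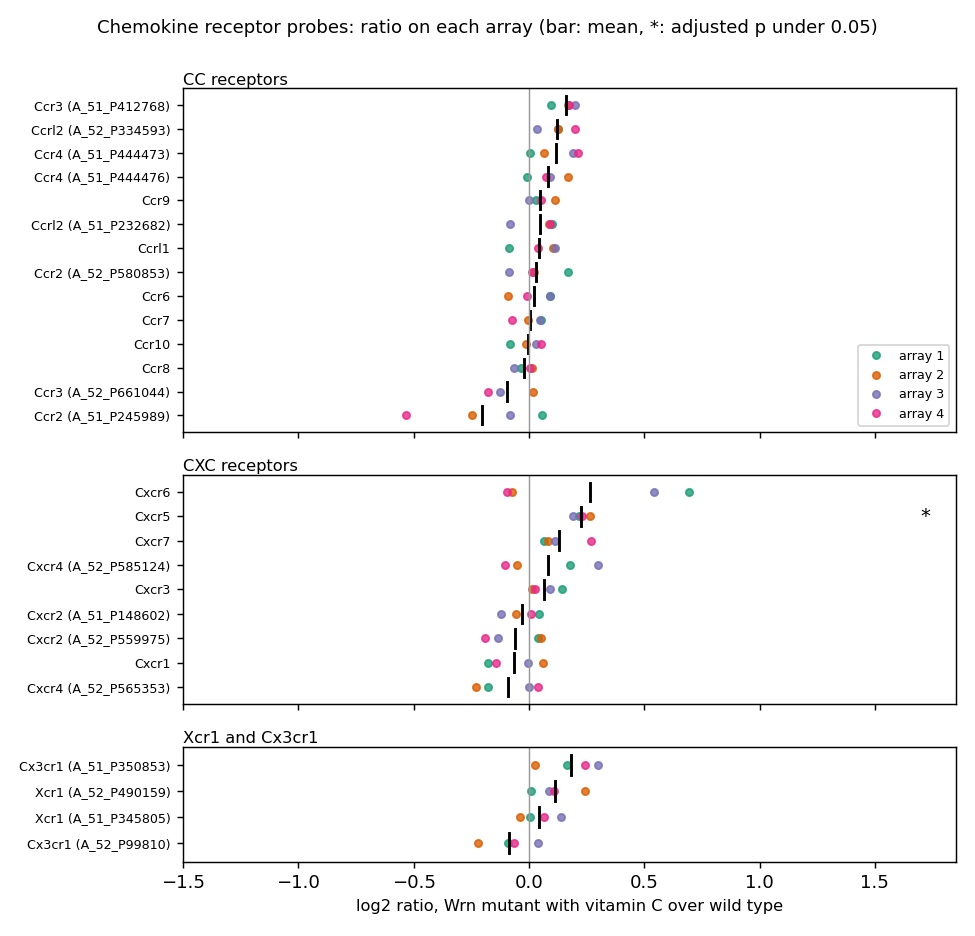
Log2 ratio of the chemokine receptor probes reported here that passed the detection filter, mutant with vitamin C over wild type, on each of 4 arrays (points) with the mean (bar); the asterisk marks an adjusted p under 0.05. Most points lie near 0, Cxcr5 has 4 tightly grouped points above 0, and Cxcr6 splits into a high and a low pair.

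Of 16 member genes with at least 2 tested probes, the probes' means had the same sign in 11 and opposite signs in 5, which were Ccl19, Cx3cr1, Ccr3, Ccr2 and Cxcr4. The median difference between probes of a gene was 0.11, and the smallest was 0.03 for Cxcr2. Ccr4, the receptor of Ccl17 and Ccl22 on Th2 and regulatory T cells, is the 1 gene whose probes overlap in sequence. They gave ratios of 0.12 ± 0.10 and 0.08 ± 0.07, a difference of 0.04. The pair is shown because it is the nearest to a technical repeat of a probe here, and capitals mark the 30 bases that both hold.
Ccr4 A_51_P444473: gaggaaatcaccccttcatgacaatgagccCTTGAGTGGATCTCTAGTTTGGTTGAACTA
Ccr4 A_51_P444476: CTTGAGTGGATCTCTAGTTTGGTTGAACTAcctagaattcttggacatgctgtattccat

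**Figure D5:**
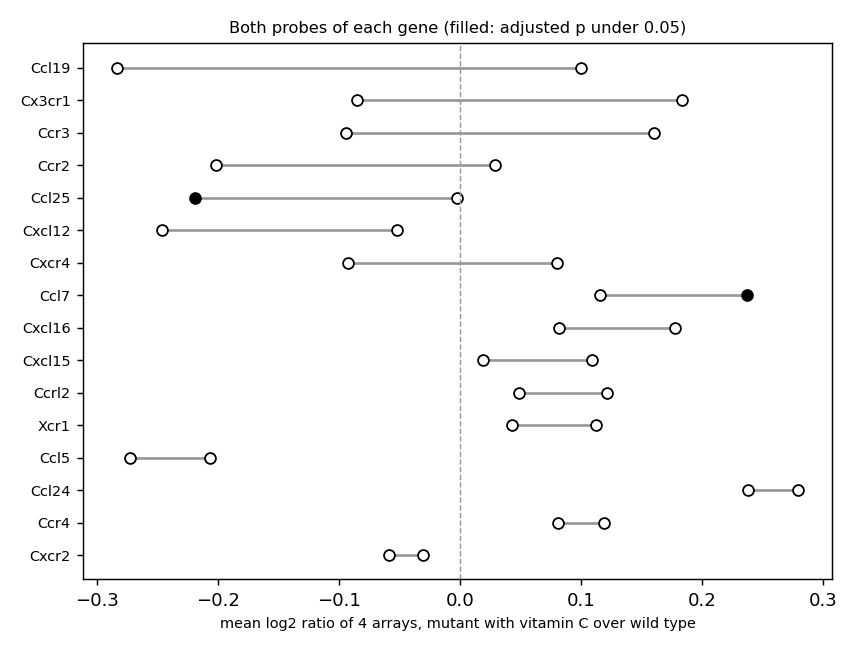
Mean log2 ratio over 4 arrays, mutant with vitamin C over wild type, for each probe of the 16 genes with both probes tested, joined by a line; filled points have an adjusted p under 0.05. The probes of Ccl19 lie farthest apart, and those of Ccl7 and Ccl25 differ in whether they passed.

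The 4 probes that failed the detection filter, those of Cxcl5, Ccl22 and Ccr1 and probe A_51_P205129 of Cx3cl1, were not well above background on any array in either channel. Ccr1 is a receptor of Ccl3 and Ccl5 on myeloid cells. It read 5.94, 5.97, 5.90 and 5.94 in mutants, against 5.79, 5.75, 5.82 and 5.84 in wild type, with a signal over local background of 1.27 in mutants and 1.29 in wild type. In the authors' deposited table its log2 ratio was 0.50 with an adjusted p of 0.0292, while the ratio from the same scans here was 0.14 and was not tested. An adjusted p under 0.05 was given in the authors' deposited table to 6 member probes, 5 of them positive, namely Ccr1 and the 5 probes that passed here. With plain background subtraction in place of normexp, Ccl2 was at 0.41 and Ccl7 on probe A_51_P436652 at 0.33. Both values were the same in the authors' deposited table, against 0.36 and 0.24 here. The Ccr1 probe is shown because its ratio in the authors' deposited table differs from the one here, and the cause was not tested. Of its bases 21.7% are G or C.
Ccr1 A_52_P616356: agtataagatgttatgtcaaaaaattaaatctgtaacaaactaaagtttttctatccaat

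Over all tested probes 6.79% were lower and 6.19% higher. Of 10 measured chemokine genes whose symbols fall outside the naming pattern, 1 was lower and none higher, with a median ratio of 0.07. The lower one was Ccl21a, a CCR7 ligand, at 8.35, 8.36, 8.71 and 8.39 in mutants, against 9.18, 8.83, 9.35 and 8.92 in wild type. The groups did not overlap and the ratio was -0.62 ± 0.16 (limma adjusted p = 0.00999). Near-identical gene copies, Ccl21b and Ccl21c, could share its probe's signal. Pf4, platelet factor 4, had ratios of -0.35, 0.22, 0.34 and -0.35 and did not pass.

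Genes known to switch chemokines on, or to limit that response, were partly lower in the mutants with vitamin C. Of 28 measured, 8 were lower and none higher in limma at an adjusted p of 0.05, with a median ratio of -0.03, against 6.79% lower and 6.19% higher of all tested probes. Without arrays 1 to 4 in turn, 5, 1, 3 and 4 of them were lower. Dusp1, a phosphatase that shuts off stress kinases, was at 12.46, 12.21, 12.09 and 12.11 in mutants, against 13.68, 13.58, 13.77 and 13.13 in wild type, with no overlap (ratio -1.32 ± 0.28, limma adjusted p = 0.00496). Zfp36, which destabilizes cytokine mRNAs, had a ratio of -0.50 ± 0.11, and Nfkbiz, an NF-kB cofactor, one of -0.65 ± 0.29. The others past the test were Il1r1 (-0.61), Relb (-0.18), Nfkbia (-0.27), Jun (-0.85) and Fos (-0.75), which hold the interleukin-1 receptor, NF-kB and AP-1 factors and an NF-kB inhibitor. The cytokines Tnf, Il1b and Il6 had ratios of 0.03, -0.01 and -0.06, with adjusted p-values of 0.776, 0.961 and 0.623 in limma. When arrays were median-centred without loess, the list had 2 higher, 6 lower and a median of 0.01.

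Of 31 measured genes of receptor signalling, 1 was higher and 2 were lower, with a median ratio of -0.08, against 13% called of all tested probes. None passed in limma with Agilent's processed signals or without array 1, 2 or 4, and 1 passed without array 3. The higher one was Pik3r5 (0.21), a PI3K-gamma subunit, whose other probe had a ratio of -0.05. The lower ones were Ptk2b (-0.45), a calcium-activated kinase also known as Pyk2, and Cdc42 (-0.26), a cytoskeletal GTPase whose other probes lay between 0.02 and 0.24. When arrays were median-centred without loess, 5 were higher and none lower by the same limma test. Of 22 measured genes that process or display chemokines, 4 were lower and none higher. They were Hspg2 (-0.38) and Sdc4 (-0.23), heparan sulfate proteoglycans that hold chemokines on surfaces, Adam10 (-0.22), a protease that sheds Cx3cl1 and Cxcl16, and Ext1 (-0.23), which builds heparan sulfate. Again 6.79% of all tested probes were lower. With median centring that list had 3 higher and 2 lower, with Agilent's processed signals none passed in limma, and without 1 array at most 1 was lower (none without array 2).

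Among the other marker lists, 3 of 12 sinusoidal endothelial, 3 of 10 stellate and 2 of 8 cholangiocyte markers were lower and none was higher, against 6.79% lower of all tested probes. They were Kdr (-0.24), Clec4g (-0.35) and Gpr182 (-0.42) for endothelium, the collagens Col3a1 (-0.51) and Col1a1 (-0.34) and Ecm1 (-0.32) for stellate cells, and Spp1 (-0.63) and Sox9 (-0.58) for cholangiocytes. Other probes of Clec4g, Col3a1 and Ecm1 had means above 0. Those of Col1a1 ran from -0.43 to 0.06, and those of Sox9 from -0.23 to 0.01. With median centring 1 endothelial marker was lower, 1 stellate marker was higher and 1 lower, and 4 cholangiocyte markers were lower. With Agilent's processed signals 0, 1 and 1 were lower in limma. Without array 2 none of the 3 lists held a call in limma, and without array 1 the counts were 0, 1 and 1. Of 15 T and NK cell markers 1 was lower, Gzmb (-0.17), a cytotoxic granule protease. Of 11 hepatocyte markers 4 were higher and 1 lower, against 6.19% higher and 6.79% lower of all tested probes. With median centring 8 were higher and none lower in limma. Those named by the smallest p were Apoa2 (0.84), Alb (0.85) and Tat (0.54), higher, and Hnf4a (-0.25), lower. Summed intensities ranged from 19818 to 23745 in mutants, against 19136 to 22739 in wild type, for T and NK cell markers. For endothelial markers they ranged from 57390 to 62373 in mutants, against 65540 to 78372 in wild type. For cholangiocyte markers they ranged from 15374 to 18708 in mutants, against 21455 to 25296 in wild type. Stellate markers summed to 102661 to 112791 in mutants, against 109213 to 132076 in wild type. Hepatocyte markers summed to 1700690 to 1894930 in mutants, against 1281130 to 1553890 in wild type. Whether the makeup of the livers contributed to any chemokine ratio was not tested.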

How the data were processed

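Agilent Feature Extraction 10.5.1.1 produced the spot intensity values, and mm9 is the build named for the design, per the file headers. Each deposited scanner file gives the median intensity of a spot and of its surroundings in both channels, signals the software had processed, and their log10 ratio. For every array the authors' deposited table lists a log2 ratio, followed by the mean ratio, a p-value and its adjusted form, and 3 score columns of the authors (a moderated statistic, log odds, a signed fold change). The submitters' processing notes mention limma without a version.

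Here, control and outlier spots were left out, the median intensities were background-corrected with normexp (offset 50) and normalized by loess within each array, and spots of a probe were averaged. Mean foreground signals were not used here. Levels per channel also had Aquantile normalization. Probes well above background on at least 3 arrays in 1 channel, with a value on at least 3, were tested with limma 3.58.1 in R 4.3.3 (mean log2 ratio against 0, Benjamini-Hochberg over all tested probes, threshold 0.05), and the fit was tested on simulated data. The authors' log2 ratios correlated with these at r between 0.981 and 0.991 across probes on each array. Intervals cover 95%.

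The members, the ligand and receptor pairs and all gene lists were chosen with earlier results of these data known. Member probes given in every sample are those past the test, the 5 highest and 5 lowest means, and 8 ligand and receptor pairs. From each list up to 3 genes per direction by smallest p are named, or the 2 of smallest p where none passed, with 1 probe per gene, that of the highest mean level. Other members and list genes (Ccl6, Ccl9, Ccr1, Il1r1, Relb, Nfkbia, Jun, Fos, Tnf, Il1b, Il6, Ext1, Pf4, Lcn2 and the like) were picked with their values in view. The values of 1 member gene are not reported here, though it is counted among the members. All 54 member symbols were matched to RefSeq (GRCm38.p6), 2 of them under a newer symbol. The number of arrays, 4, limits the precision.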

Additional observations from a re-analysis of the deposited data

Results flagged for a closer look

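Among 99 sets of 4 levels or ratios of the named members, 4 held 1 animal far from the other 3 by Dixon's criterion, and chance flags about 1 in 20 sets. All 4 concerned array 1. The wild-type level of Ccl25 on probe A_52_P326713 was 7.96 on array 1, against 8.38 to 8.45 in the other wild-type mice. That of Cx3cr1 on probe A_52_P99810 was 9.95, against 9.17 to 9.25. That of Ccl7 on probe A_51_P436652 was 7.27, against 7.10 to 7.12. The mutant level of Xcr1 on probe A_51_P345805 was 11.26 on array 1, against 12.53 to 12.78 in the other mutants. In each case the other animal of array 1 lay on the same side. For Ccl25, Cx3cr1 and Ccl7 it was a mutant, at 7.66, 9.86 and 7.55. The other mutants were at 8.08 to 8.31, 9.03 to 9.21 and 7.30 to 7.36. For Xcr1 it was a wild-type mouse at 11.26, against 12.46 to 12.82 in the other wild-type mice. None of the 4 flags fell on a ratio.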

How the results depend on the processing

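Of the member probes, 5 passed the test as reported. The number was 8 without background correction (7 higher, 1 lower), 7 with median centring in place of loess, 3 with the brightest probe of each gene, 1 with Agilent's processed signals, and 0 to 3 with 1 array left out. Of the 5 reported calls only Ccl2, with 10 spots on each array, held without array 1, 3 or 4, and none held without array 2. Without array 3 the 3 that passed were Ccl2, Cxcl1 and Cxcl14. The ratio on each array is already the paired analysis, since each array joins 1 mutant and 1 wild-type mouse. With no replicate block, the channels fitted as unpaired groups, 0 member probes and 26 of all probes passed in limma. Over the 33 probes given in every sample the number was 5 as reported, 1 with Agilent's processed signals, 3 with the brightest probe, 0 with no replicate block and 0 to 3 with 1 array left out. Over all probes it was 5076 as reported, 1270 with Agilent's processed signals, 3189 with the brightest probe, 2723 with the mean of each gene's probes, and 160 to 2270 with 1 array left out (1494, 160, 2270 and 1086 without arrays 1 to 4). With median centring it was 7303, of which 4292 were higher and 3011 lower, against 2421 higher and 2655 lower as reported. The median member ratio was 0.069 with Agilent's processed signals, against 0.02 as reported. Among single genes past the test, Ecm1 was at 0.024 with median centring and Cdc42 at 0.041 as the mean of its probes, each with the sign opposite to that reported. Members not past the test also changed sign with median centring: Cxcl12 was at 0.10 and 0.05 on its probes, Cxcl10 at 0.01, Ccr2 at -0.13 (probe A_52_P580853), Cxcr4 at -0.14 (A_52_P585124) and Xcr1 at -0.03 (A_52_P490159). The causes were not tested, other than that fewer arrays and fewer probes enter some of these fits. Calls of Ccl7 and Ccl25 were lost in 7 of 16 alternatives each, those of Ccl20 and Cxcr5 in 6 of 17, with no change of sign. Dim members limit the precision: 4 of 71 were not well above background on any array, and without a dye swap no fit separates dye from group.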
